A study of Mus musculus with 72 samples.

Results

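Liver transcripts of mice labelled SIRT6 knockout (KO) were compared with those of their wild type (WT) controls at zeitgeber time (ZT) 4, which is 4 h after lights on and early in the rest phase of a nocturnal animal. The 6 arrays, 3 KO-labelled and 3 WT, were chosen by their sample titles out of 72 arrays in the whole series. The KO-labelled mice carried a loss of SIRT6 that the treatment protocol calls specific to the liver, and both genotypes shared a strain label of 129 mixed, a cycle of 12 h light and 12 h dark, and no further treatment. The labels state neither age nor sex, nor the promoter that drives the deletion. The same cohort was sampled at ZT 0, 8, 12, 16 and 20 with 3 arrays per genotype and time, and these 30 arrays, which share no sample with ZT4, served for comparison. The labels number the replicates without saying that each came from its own mouse, so the p-values rest on a spread between arrays that may be technical.

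SIRT6 is an NAD-dependent deacylase that sits on chromatin and removes acetyl groups from histone H3. In mouse liver it is known as a brake on glycolytic genes that HIF1A drives and on genes of lipid synthesis, and it has been tied to the circadian factors CLOCK and BMAL1. The comparison asks how far the liver transcriptome departs from WT at a single point of the daily cycle when SIRT6 is removed.

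Levels are given as log2(intensity + 16), a scale that understates changes of weakly expressed genes, and 13308 genes were tested after the lowest 40% by mean had been left out. Median probe set intensity lay between 45.7 and 49.1 on the KO-labelled arrays and between 43.9 and 46.8 on the WT arrays, and precision is set by having 3 arrays per group. The arrays did not group by genotype alone, and in the acute phase genes 1 array stood apart. KO replicate 1 had a mean of 12.18 over the acute phase list, against 10.91 and 10.80 on the other KO-labelled arrays and 11.13, 10.96 and 11.55 on the WT arrays. It correlated at 0.968 with each of the other KO-labelled arrays, which correlated at 0.991 with each other and at 0.980 with WT replicate 2. WT replicate 2 was likewise apart from its group, at 0.964 and 0.963 with WT replicates 1 and 3. Those WT arrays correlated at 0.976 with each other, and KO replicate 1 at 0.976 with WT replicate 3 and 0.967 with WT replicate 1. The 9 hepatocyte markers measured summed to an intensity of 50581 to 55472 in KO-labelled and 49155 to 55679 in WT arrays, and the macrophage markers to 8943 to 14911 and 6060 to 15273. Of 10 neutrophil markers, 9 were below the level filter, S100a8, S100a9 and Mpo among them. In bulk tissue, fewer cells of a type and less RNA per cell cannot be told apart.

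The targeted gene was examined first. Sirt6 (probe set 17243432) read 7.98, 7.85 and 7.78 in the KO-labelled arrays and 7.36, 7.23 and 7.35 in the WT arrays. All 3 KO-labelled arrays were above all 3 WT arrays, by 0.56 ± 0.12 (SE) on the log2 scale or 1.47-fold, and the difference narrowly missed the threshold (limma adjusted p = 0.057). The excess was as large at the other 5 times, at 0.58 ± 0.05 (adjusted p = 5.5e-08). A further probe set, which also carries the names of 4 predicted genes besides Sirt6, read 9.29, 9.42 and 9.18 against 9.41, 9.31 and 9.28, and its groups overlapped. The labels do not place either probe set relative to the deleted part of the gene, so neither checks the labels, and every direction below rests on those labels. Of the 10 tested genes on each side of Sirt6 in the RefSeq gene order, 0 passed the limma test and 4 had separate groups of arrays. Over all genes tested, 7.00% had separate groups upward and 11.1% downward, so that count was near the share of all genes.

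At ZT4, 24 genes passed the test of KO minus WT at an adjusted p of 0.05, with p-values corrected over all genes and all 6 times together. Of these, 11 were higher in KO-labelled livers, which is 0.0827% of the genes tested, and 13 were lower, which is 0.0977%. Their median size was 0.77 on the log2 scale. A looser view gave many more genes with separate groups, since the 3 KO-labelled arrays were all above the 3 WT arrays in 931 genes (7.00%) and all below them in 1473 genes (11.1%). The median change over all genes was -0.03, and 56.2% of genes had the lower mean in KO-labelled livers. An unadjusted p under 0.05 in limma's test was reached by 1634 of the 13308 genes tested. Counts of gene lists below are read against these shares and this count. The lists were chosen with earlier results of these data known, so their counts describe the lists and are no independent test. Over the 36 arrays of the cohort, 1 component shared across genes held 52.7% of the variance within groups. Genes of a list can therefore move together on an array and are not separate observations.

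The strongest increase that passed was in Gsn, which encodes gelsolin, a protein that severs and caps actin filaments. Gsn read 10.17, 9.27 and 9.28 in KO-labelled livers, against 6.60, 6.58 and 7.64 in WT livers, a rise of 2.64 ± 0.50 (SE) or 6.22-fold (adjusted p = 0.017). The lowest KO-labelled array was well above the highest WT array. Apba2, an adaptor that binds the amyloid precursor protein, read 7.96, 7.37 and 7.47, against 6.63, 4.88 and 5.60 in WT, and rose by 1.89 ± 0.37 (adjusted p = 0.023). Its WT arrays were widely spread and its KO-labelled arrays close together. Nuggc, a nuclear GTPase known from germinal centre B cells, read 7.67, 7.56 and 7.46, against 5.49, 6.53 and 6.05 in WT, a 2.91-fold rise (adjusted p = 0.0094). Cox6b2, the testis form of a cytochrome c oxidase subunit, read 8.70, 9.02 and 9.27, against 8.00, 8.05 and 7.82 in WT (adjusted p = 0.03). Here too no WT array reached a KO-labelled one.

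The other increases were of about 1 log2 unit or less. Qpct, the enzyme that closes N-terminal glutamine into pyroglutamate, rose 1.98-fold, with 8.18, 8.00 and 8.27 in KO-labelled livers and 6.72, 7.51 and 7.27 in WT. Tceal1, a relative of transcription elongation factors, rose 1.91-fold and Plpp7, of the phospholipid phosphatase family, 1.76-fold. Plpp7 had the smallest p of the increases, with 7.65, 7.33 and 7.32 in KO-labelled livers and 6.75, 6.67 and 6.44 in WT (adjusted p = 0.0017). Col4a5, a basement membrane collagen, read 6.59, 6.55 and 6.63 against 6.04, 5.62 and 5.80 in WT. It rose 1.71-fold, and Rassf3, a Ras association protein, rose 1.70-fold. Peli3, a ubiquitin ligase of the Pellino family, rose 1.46-fold, and Grm2, a metabotropic glutamate receptor, 1.43-fold. All 11 kept their direction when any single ZT4 array was left out, but the calls were not equally firm. Plpp7 and Col4a5 passed in each of the 6 fits that left out 1 array. Nuggc failed without WT replicate 1, Peli3 without KO replicate 1 or WT replicate 2, Qpct without KO replicate 1, KO replicate 3 or WT replicate 1, and Gsn, at 2.34 to 2.99, without KO replicate 1, WT replicate 1 or WT replicate 2. Rassf3 passed only without KO replicate 1 or WT replicate 2, Apba2 only without WT replicate 1, Cox6b2 only without KO replicate 1, Tceal1 only without WT replicate 3, and Grm2 in none of these fits. With all arrays, Qpct, Peli3 and Grm2 missed the threshold after quantile normalization, Qpct, Cox6b2, Rassf3 and Grm2 after centring of array medians, and Rassf3 and Grm2 with no filter.

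Among the 13 genes that fell, Tc2n, a protein with tandem C2 domains, changed most. Tc2n read 6.14, 5.67 and 5.67 in KO-labelled livers, against 7.39, 7.28 and 6.98 in WT livers, a change of -1.39 ± 0.25 (SE) or 2.62-fold lower (adjusted p = 0.011). Hacd1, a dehydratase of very long chain fatty acid elongation, read 7.32, 7.10 and 7.29 against 8.23, 8.07 and 8.16 in WT, 1.89-fold lower (adjusted p = 0.0017). Replicates of Hacd1 lay close together in both genotypes. Fam169b, whose function is not stated here, read 7.40, 7.48 and 7.38 against 8.06, 8.05 and 8.07 in WT (adjusted p = 0.0036). Zcwpw1, a reader of methylated histone H3 known from meiosis, read 6.02, 5.76 and 5.99 against 6.75, 6.66 and 6.50 in WT. Both were low in all 3 KO-labelled arrays. The long noncoding RNA Fendrr, known in the mouse from mesoderm development, read 6.54, 6.49 and 6.43 against 6.88, 7.31 and 7.09 in WT, 1.53-fold lower (adjusted p = 0.013). Lyrm2, a mitochondrial protein of the LYR family, fell 1.72-fold.

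The other 7 genes that fell had changes of 1.27-fold to 1.81-fold. Kpna2, an importin that carries proteins into the nucleus, read 8.77, 8.65 and 8.61 in KO-labelled livers and 9.76, 9.13 and 9.71 in WT livers, 1.81-fold lower (adjusted p = 0.044). Rangap1, which activates the GTPase of the transport factor Ran, read 8.19, 8.14 and 8.25 against 8.81, 8.68 and 8.72 in WT, 1.46-fold lower (adjusted p = 0.0054). No array of either gene crossed between the groups. Iars, the cytosolic isoleucyl-tRNA synthetase, read 9.12, 9.02 and 9.14 against 9.76, 9.38 and 9.51 in WT, and fell 1.37-fold (adjusted p = 0.031). Mrpl23, of the mitochondrial ribosome, fell 1.35-fold, and Ube4a, which lengthens ubiquitin chains, 1.31-fold. Ttc39b, a tetratricopeptide repeat protein known in mouse liver for control of the sterol receptor LXR, fell 1.50-fold. Pa2g4, a growth-related protein of the nucleolus and ribosome, fell 1.27-fold, with 9.60, 9.51 and 9.61 against 9.97, 9.84 and 9.96 in WT (adjusted p = 0.032). Each of the 13 kept its direction without any single array. Hacd1, Fam169b, Zcwpw1 and Rangap1 passed in each such fit, and Ube4a in none. Tc2n failed without KO replicate 2, KO replicate 3 or WT replicate 1, Fendrr and Mrpl23 without KO replicate 2, KO replicate 3 or WT replicate 2, and Lyrm2 without these 3 or WT replicate 3. Iars, Kpna2, Pa2g4 and Ttc39b passed only without WT replicate 2. With all arrays, Iars, Kpna2, Mrpl23 and Pa2g4 missed the threshold after quantile normalization, and those 4 and Ttc39b with no filter.

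**Figure D1:**
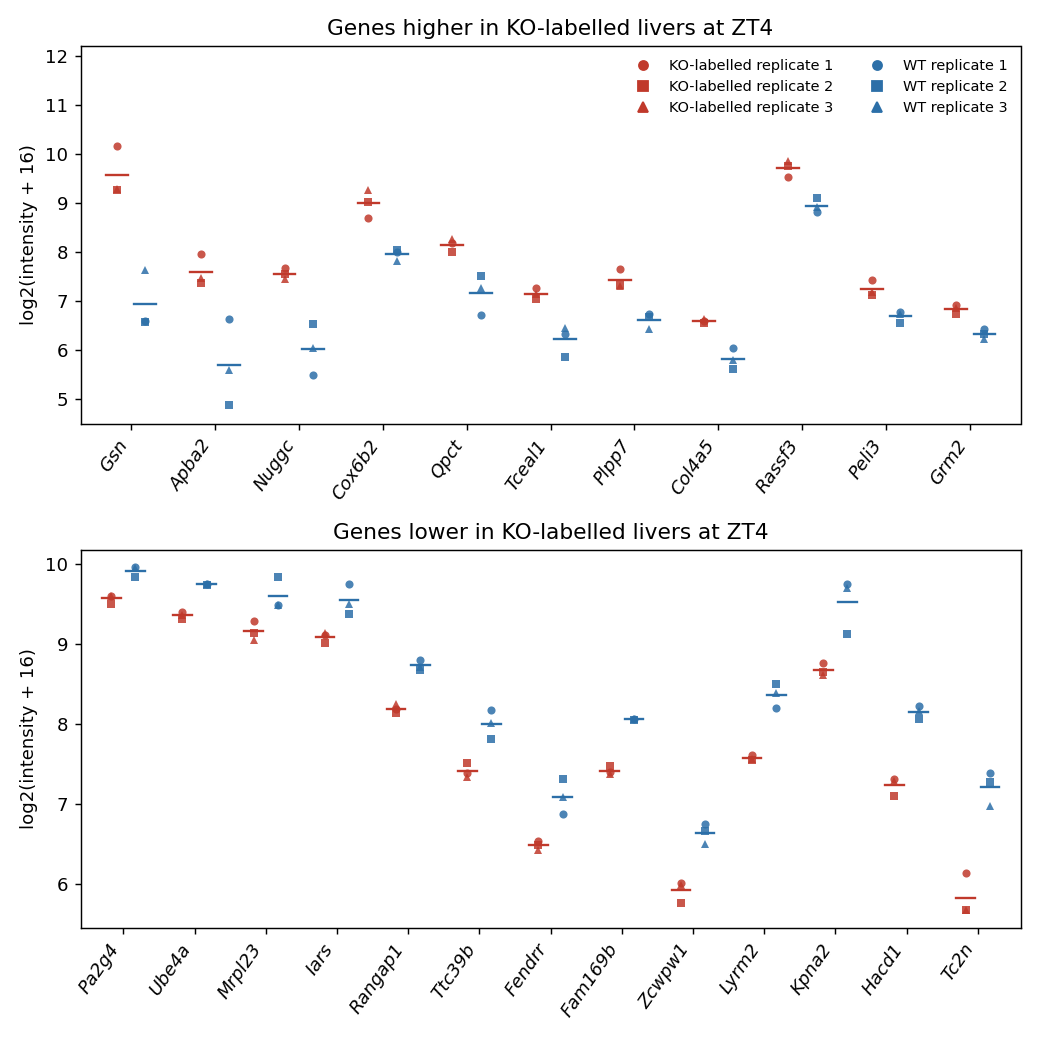
Levels of the 24 genes that passed at ZT4, as log2(intensity + 16) on the vertical axis, for 3 KO-labelled arrays (red, left of each pair) and 3 WT arrays (blue, right); symbols mark the replicate and bars the group means. The groups do not overlap for any of the 24 genes, from Gsn at 2.64 to Tc2n at -1.39.

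The 30 arrays of the other 5 times gave the same contrast in samples other than those of ZT4. Both contrasts took the spread of each gene from all 36 arrays, so their tests were not independent. Averaged over those times, 558 genes passed, 365 higher (2.74% of genes tested) and 193 lower (1.45%) in KO-labelled livers. Of the 24 genes that passed at ZT4, 18 also passed there in the same direction, which is 75% of the ZT4 calls and 3.23% of the other-time calls, and 22 had the same sign. In the other direction, 141 of the 365 genes higher at the other times had all KO-labelled arrays above all WT arrays at ZT4 (7.00% of all genes did), and 115 of the 193 lower ones had them all below (11.1% of all genes did). Apba2 was as high at the other times (1.95 ± 0.16) as at ZT4, as were Nuggc (1.55 ± 0.12) and Cox6b2 (1.07 ± 0.09), while Tc2n was low throughout (-1.27 ± 0.11). These 4 genes kept 1 sign at each of the 6 times. The 6 genes that missed the threshold there were Grm2 (0.02 ± 0.05), Iars (-0.06 ± 0.04), Fendrr (0.06 ± 0.05), Fam169b (0.01 ± 0.04), Kpna2 (-0.19 ± 0.08) and Ttc39b (-0.17 ± 0.06). Averages can hide single times, since Iars was at -0.27 at ZT 0 and -0.19 at ZT 8, and Grm2 at 0.22 at ZT 8 and -0.21 at ZT 20.

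A test of the difference between ZT4 and the mean of the other times passed for 2 genes, 0.0150% of those tested, and 874 had an unadjusted p under 0.05. Fam169b differed by -0.66 (adjusted p = 0.017). Its level in KO-labelled livers at ZT4 lay below every other KO-labelled array (lowest 7.67, median 8.09) while WT held at 7.77 or above throughout. Fendrr differed by -0.67 (adjusted p = 0.048). Its WT arrays at ZT4 (6.88, 7.31 and 7.09) lay above every other WT array (highest 6.87). The KO-labelled ones (6.54, 6.49 and 6.43) were at or below the lowest other KO-labelled array (6.54). Neither difference is firm: the Fam169b difference missed the threshold when any 1 ZT4 array was left out (adjusted p 0.051 to 0.17), and that of Fendrr did so for 5 of the 6 arrays, passing only without WT replicate 1 (0.02). For Grm2 the difference was 0.49 (adjusted p = 0.56), so a change confined to ZT4 was not shown for it. Its WT arrays at ZT4 (6.43, 6.34 and 6.24) were below the lowest other WT array (6.45). Its KO-labelled arrays at ZT4 (6.92, 6.75 and 6.87) lay within the range of the other KO-labelled arrays (6.39 to 6.95).

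**Figure D2:**
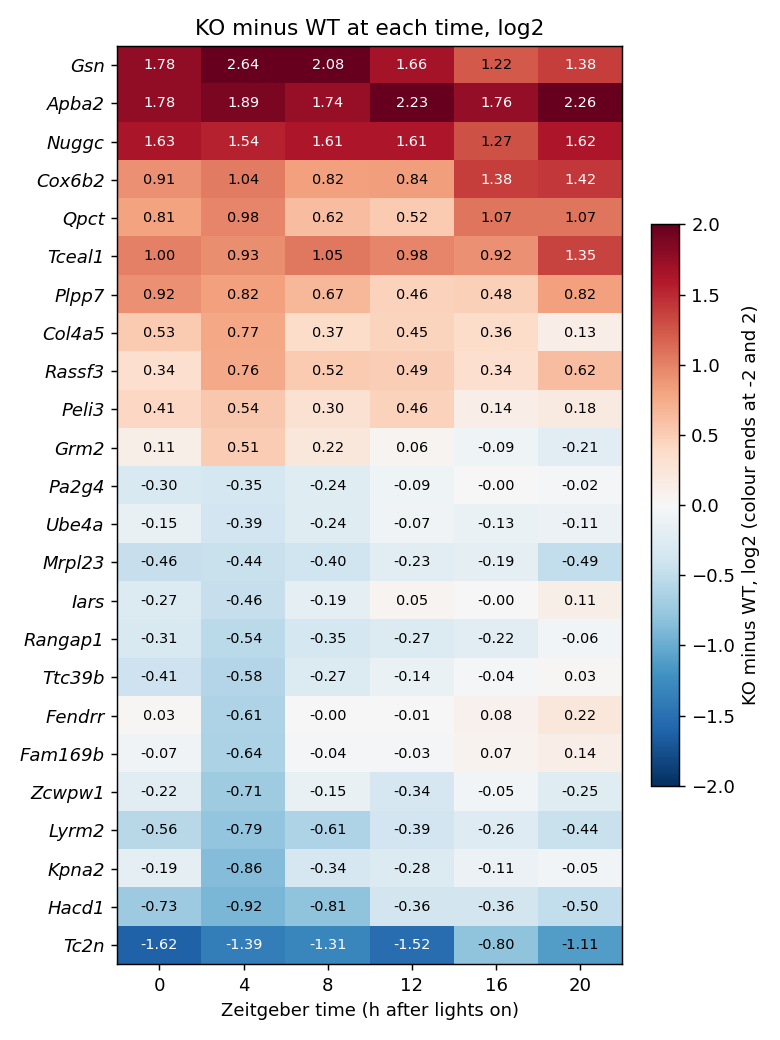
KO minus WT on the log2 scale for the 24 genes (rows) at each zeitgeber time (columns, h after lights on), with red for higher and blue for lower in KO-labelled livers. Gsn, Apba2, Nuggc and Tc2n keep 1 sign at all 6 times, whereas Fam169b (-0.64) and Fendrr (-0.61) stand out at ZT4.

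Of the 5 highest and 5 lowest differences with separate groups, only Gsn and Apba2 passed. The others did not, and their standard errors were wide. Rps13, a protein of the small ribosomal subunit, read 4.49, 4.73 and 4.62 in KO-labelled livers, against 7.71, 8.28 and 9.05 in WT livers, a difference of -3.74 ± 1.02 (adjusted p = 0.19). At the other times its difference was -2.77 at ZT 0, -1.90 at ZT 8, 0.91 at ZT 12, 1.34 at ZT 16 and -0.35 at ZT 20. Its arrays therefore did not keep 1 direction over the day. Single arrays of both genotypes were low or high within 1 group. Rps13 read 4.44, 8.07 and 7.76 in WT livers at ZT 8, and 8.25, 8.81 and 4.61 in KO-labelled livers at ZT 16. Selenbp2, a selenium-binding protein of liver, read 8.73, 8.62 and 8.07 against 11.36, 11.66 and 11.11 in WT (-2.90 ± 0.68, adjusted p = 0.091). Its difference was -0.76 at ZT 0, -0.63 at ZT 8, 1.77 at ZT 12, -0.28 at ZT 16 and 0.23 at ZT 20, so its direction also varied over the day and the mean of 0.07 there joins opposite values. Asns, asparagine synthetase, read 5.75, 6.70 and 5.94 against 9.80, 7.25 and 7.28 in WT, with WT replicate 1 far above the rest (adjusted p = 0.5). Tmem184c, a membrane protein, differed by -1.52 (adjusted p = 0.19) and passed at the other times (-1.12 ± 0.19). Cyp17a1, a steroid hydroxylase, differed by -1.50 (adjusted p = 0.34).

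On the higher side, 3 genes led without passing. Sult2a7, a sulfotransferase, read 10.36, 10.21 and 10.14 in KO-labelled livers, against 5.81, 7.39 and 7.10 in WT livers (3.47 ± 0.86, adjusted p = 0.12). Hamp2, the paralogue of hepcidin, which governs iron uptake, read 7.60, 9.61 and 10.17 against 6.29, 5.34 and 5.61 in WT (3.38 ± 0.84, adjusted p = 0.12). Ptgds, which makes prostaglandin D, differed by 2.79 ± 0.94 (adjusted p = 0.36). All 3 had separate groups at ZT4 and passed at the other times, at 2.54, 2.77 and 1.64. Rps13, Selenbp2, Sult2a7 and Hamp2 belong to families with closely related copies or pseudogenes, whose signal a probe set may share.

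**Figure D3:**
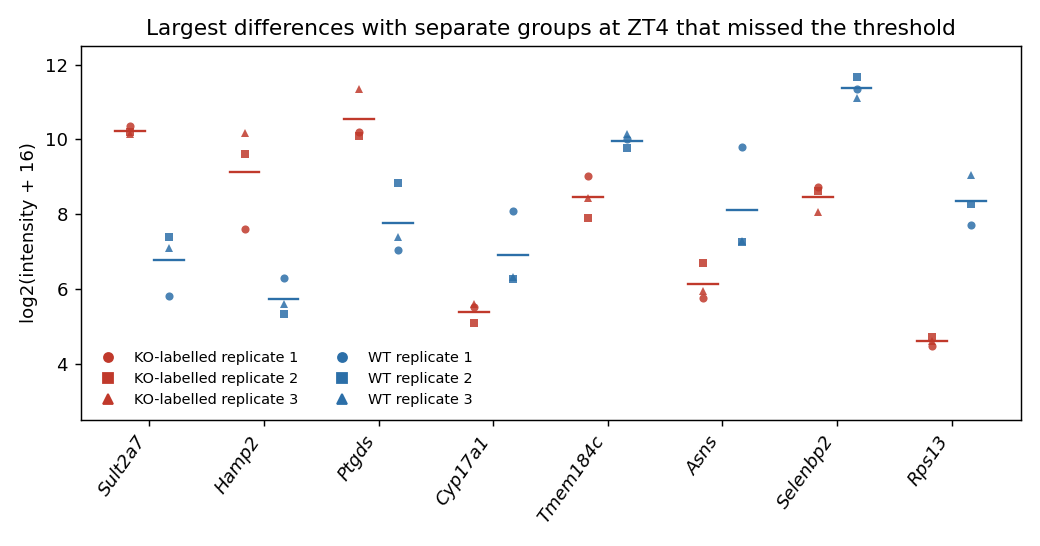
Levels at ZT4, as log2(intensity + 16), of 8 genes that missed the threshold, out of the 5 highest and 5 lowest differences with separate groups, with KO-labelled arrays in red on the left and WT arrays in blue on the right of each pair. The groups are separate for each gene, from Sult2a7 (3.47) to Rps13 (-3.74), yet adjusted p lay between 0.091 and 0.5.

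Some of these genes are sex-biased in mouse liver, and sex is not given in the labels. Of 14 female-biased genes measured, 9 had the higher and 5 the lower mean, with 3 separate upward and 1 downward. Over all genes tested, 7.00% were separate upward and 11.1% downward. Of 26 male-biased genes, 11 had the higher and 15 the lower mean, with 3 separate upward (Cyp2u1 at 1.26, Elovl3 and Mup21) and Selenbp2 downward. None of either list passed the limma test at ZT4. An unadjusted p under 0.05 in that test was reached by 3 of the female-biased and 4 of the male-biased genes, against 1634 of 13308 genes tested. Cyp2b9, a female-biased cytochrome, read 9.85, 11.89 and 11.81 in KO-labelled livers, against 10.13, 4.80 and 5.05 in WT livers. WT replicate 1 thus read like the KO-labelled arrays. Chosen after their values were seen, the female transcript Xist read 5.70, 6.10 and 6.22 against 5.83, 6.12 and 5.62 in WT, and the Y-linked Kdm5d 8.23, 8.15 and 8.19 against 7.32, 8.28 and 8.23. Xist was low and Kdm5d present on all 6 arrays, with WT replicate 1 lowest in Kdm5d. The part of sex in these differences was not tested.

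Genes that the endoplasmic reticulum uses to fold proteins mostly had lower means in KO-labelled livers, though none passed the test. When unfolded proteins gather there, the sensors ATF6, IRE1 and PERK raise the production of chaperones, in part through a sequence called the ER stress element in the promoters of chaperone genes. Of 22 measured members of the list of unfolded protein and amino acid stress, 18 had the lower mean and 4 the higher, and the median was -0.30, against -0.03 over all genes. In 13 of the 22 all KO-labelled arrays were below all WT arrays, against 11.1% of all genes, and in 0 were they all above. None passed limma's test, and 10 had an unadjusted p under 0.05, all lower. The list mean was 9.28, 9.13 and 9.13 in KO-labelled livers and 9.70, 9.41 and 9.52 in WT livers. The count of lower members ranged from 17 to 19 when each ZT4 array was left out, and it was 18 after quantile normalization and after centring of array medians.

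Among the luminal chaperones and their helpers, Hspa5, the chaperone BiP, read 10.85, 10.59 and 10.64 in KO-labelled livers, against 11.41, 10.92 and 11.38 in WT livers (-0.54 ± 0.19, adjusted p = 0.38). Manf, a secreted stress protein that binds BiP, read 8.76, 8.38 and 8.37 against 9.48, 9.02 and 9.50 in WT (-0.83 ± 0.27, adjusted p = 0.33). Neither gene's groups overlapped. Hyou1, the nucleotide exchanger of BiP, read 10.16, 9.87 and 9.94 against 10.70, 10.42 and 10.70 in WT, and Creld2, a luminal stress protein, 8.83, 8.55 and 8.72 against 9.77, 8.99 and 10.02. The glycoprotein chaperones and cochaperones Hsp90b1 (-0.25), Calr (-0.20), Dnajb9 (-0.60), Dnajb11 (-0.34) and Dnajc3 (-0.23) had separate groups as well. Pdia6, a disulfide isomerase, differed by -0.34, but KO replicate 1 (10.17) was above WT replicate 1 (10.14). Among the sensors and factors, Atf6 read 9.39, 9.32 and 9.33 against 9.87, 9.59 and 9.72 in WT (-0.38 ± 0.09, adjusted p = 0.1), and Atf4, the factor of the amino acid branch, differed by -0.35 with separate groups. Sel1l, which escorts misfolded proteins out for degradation, differed by -0.29. The stress effectors were mixed: Xbp1 (-0.12), Ddit3 (-0.27), Atf3 (-0.09), Trib3 (0.22) and Chac1 (0.28) overlapped.

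The promoters of 6 of these members hold an ER stress element and are shown because that element is the known target of this response, while the other 13 promoters did not hold it in this window. The search was for CCAAT, any 9 bases and CCACG on either strand, in RefSeq promoters (GRCm38.p6) of 250 bases before to 50 after the start. The match stands in capitals with 20 bases on each side, 5′ to 3′ on the strand of the gene, and Hsp90b1 holds 2 matches.
Hspa5: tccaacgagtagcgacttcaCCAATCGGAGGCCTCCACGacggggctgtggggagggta
Creld2: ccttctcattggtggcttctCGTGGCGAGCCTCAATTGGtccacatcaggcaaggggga
Hsp90b1: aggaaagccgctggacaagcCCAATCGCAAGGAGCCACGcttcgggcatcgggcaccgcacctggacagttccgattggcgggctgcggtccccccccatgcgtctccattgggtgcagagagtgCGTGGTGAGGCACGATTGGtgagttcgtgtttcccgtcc
Dnajc3: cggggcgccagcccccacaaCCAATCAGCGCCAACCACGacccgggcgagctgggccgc
Calr: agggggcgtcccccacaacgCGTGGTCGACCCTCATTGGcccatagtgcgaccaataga
Pdia6: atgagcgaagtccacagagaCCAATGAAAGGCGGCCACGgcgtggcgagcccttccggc
In the same order, the windows lie at chr2:34772005-34772063 (plus strand), chr15:88819500-88819558 (plus strand), chr10:86705513-86705676 (minus strand), chr14:118937807-118937865 (plus strand), chr8:84847055-84847113 (minus strand) and chr12:17266471-17266529 (plus strand). The first matched base lies 65 bases before the start in Hspa5, 126 in Creld2, 212 in Hsp90b1, 105 in Dnajc3, 162 in Calr and 98 in Pdia6.

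Of 19 list members with a promoter in the RefSeq table, these 6 (31.6%) held the motif, against 19 of 10455 tested genes (0.182%) and 39 of 32851 promoters (0.119%). The list is made of genes known for this response, so that enrichment describes the list and not the KO. Among the 19 tested genes with the motif, 9 had all KO-labelled arrays below all WT arrays and 1 had them all above, against 11.1% and 7.00% of all genes, and the median change was -0.20. That count largely repeats the list: its 6 members held 5 of the 9, with a median of -0.30. Of the 13 genes outside the list, 4 were below (Canx and Syvn1 among them) and 1 above, with a median of 0.07. A match describes the letters of the promoter and says nothing of what binds there.

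Heat shock genes, of the cytosol and mitochondria, also mostly had lower means. Of 13 measured, 12 had the lower mean, with a median of -0.29, and in 5 all KO-labelled arrays were below all WT arrays, against 11.1% of all genes. None passed limma's test, and 5 had an unadjusted p under 0.05. Hsph1, a large chaperone that recharges HSP70, read 7.51, 7.12 and 6.95 in KO-labelled livers, against 8.42, 7.56 and 8.14 in WT livers (-0.85 ± 0.25, adjusted p = 0.25). Hsp90aa1, the inducible HSP90, read 8.89, 8.62 and 8.66 against 9.28, 9.11 and 9.47 in WT (-0.57 ± 0.18, adjusted p = 0.29). Both were low in every KO-labelled array. Hspa8, the constitutive HSP70, differed by -0.29, and its 3 other probe sets by -0.19, -0.11 and -0.10. Chordc1, an HSP90 cochaperone, differed by -0.49 with separate groups. Hspa1b, the inducible HSP70, went the other way at 0.45, and its groups overlapped. A heat shock element (TTC, any 2 bases, GAA, any 2 bases, TTC, or the inverted order GAA, TTC, GAA, on either strand) was found in 4 of the 10 members with a promoter (40%), Chordc1, Hspd1, Hspe1 and Hsph1, against 0.574% of 10455 tested genes and 0.603% of 32851 promoters. Hspd1 and Hspe1 share the same window, read on opposite strands, so their matches are not separate sequences. The list is made of known heat shock genes, so that enrichment describes the list and not the KO. Over the 60 tested genes that hold the element, 31 had the lower mean and 29 the higher, with a median of -0.03, which is that of all genes.

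Ribosome assembly genes shared 1 sign. All 17 measured genes of ribosome biogenesis and MYC targets had the lower mean in KO-labelled livers, with a median of -0.27. These genes were read on the same 6 arrays, so the shared sign is not 17 separate observations. In 7 the groups were separate, all lower, against 11.1% of all genes. Pa2g4 was the 1 member that passed. Utp20, of the small subunit processome, read 7.29, 7.15 and 7.23 in KO-labelled livers, against 7.72, 7.52 and 7.72 in WT livers (-0.43 ± 0.11, adjusted p = 0.12). Wdr12, which matures the large subunit, read 6.87, 6.91 and 6.73 against 7.47, 7.09 and 7.31 in WT (-0.45 ± 0.13, adjusted p = 0.21). Nolc1, a nucleolar phosphoprotein, read 8.81, 8.81 and 8.60 against 9.57, 8.89 and 9.24 in WT (-0.50 ± 0.16, adjusted p = 0.3). In each of these the highest KO-labelled array was below the lowest WT array, narrowly so for Nolc1. Polr1b (-0.38), a subunit of RNA polymerase I, and Npm1 (-0.19) were also separate, as was Myc itself at 7.20, 6.59 and 6.24 against 7.30, 7.30 and 7.27. All 17 stayed lower after quantile normalization, after centring of array medians and in each fit that left out 1 array, although the call of Pa2g4 was lost after quantile normalization and in 5 of the 6 fits with 1 array left out. The E-box CACGTG was in 2 of 13 member promoters (15.4%), against 11.4% of tested genes and 7.15% of all promoters.

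Averaged over the other 5 times, the median change was -0.01 for ribosome biogenesis, -0.03 for unfolded protein stress and -0.05 for heat shock, against 0.01 over all genes, and 1, 0 and 0 members passed. These averages join unlike times, and 12 of the 13 heat shock genes had the lower mean there too. The mean level of the ribosome biogenesis list was 7.98, 7.88 and 7.90 on the KO-labelled arrays at ZT4, below the lowest of the 30 arrays of the other times (8.00 in KO-labelled and 8.07 in WT livers). In WT livers at ZT4 it was 8.39, 8.04 and 8.23. For unfolded protein stress the KO-labelled mean at ZT4 was 9.18 ± 0.08 (SD, n = 3) against 9.54 ± 0.15 in WT, and at ZT 8 it was 9.26 ± 0.09 against 9.42 ± 0.09. For heat shock it was 8.49 ± 0.09 against 8.76 ± 0.14 at ZT4 and 8.57 ± 0.13 against 8.75 ± 0.05 at ZT 8. At ZT 16 the mean of KO minus WT was -0.21 for heat shock and -0.17 for unfolded protein stress, against -0.27 and -0.36 at ZT4, while unfolded protein stress was at 0.16 at ZT 12. For ribosome biogenesis it was -0.30 at ZT4, -0.15 at ZT 0 and 0.23 at ZT 20. No member passed limma's test of ZT4 against the other times, so a difference between times was not shown for any member. In that test 6 of 17, 7 of 22 and 4 of 13 members had an unadjusted p under 0.05, against 874 of 13308 genes tested. Without KO replicate 1, the array with the high acute phase mean, 17 of 17, 19 of 22 and 11 of 13 members had the lower mean.

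**Figure D4:**
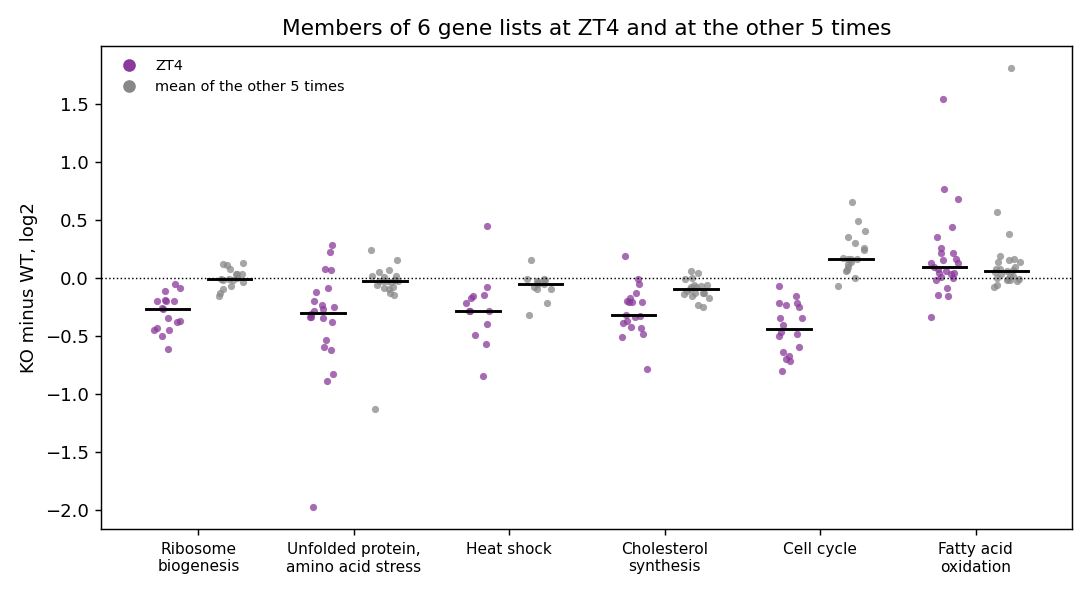
KO minus WT on the log2 scale for each measured member of 6 gene lists, at ZT4 (purple, left) and averaged over the other 5 times (grey, right), with black bars at the medians. At ZT4 the medians of the first 5 lists lie between -0.27 and -0.44, and that of fatty acid oxidation at 0.09.

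**Figure D5:**
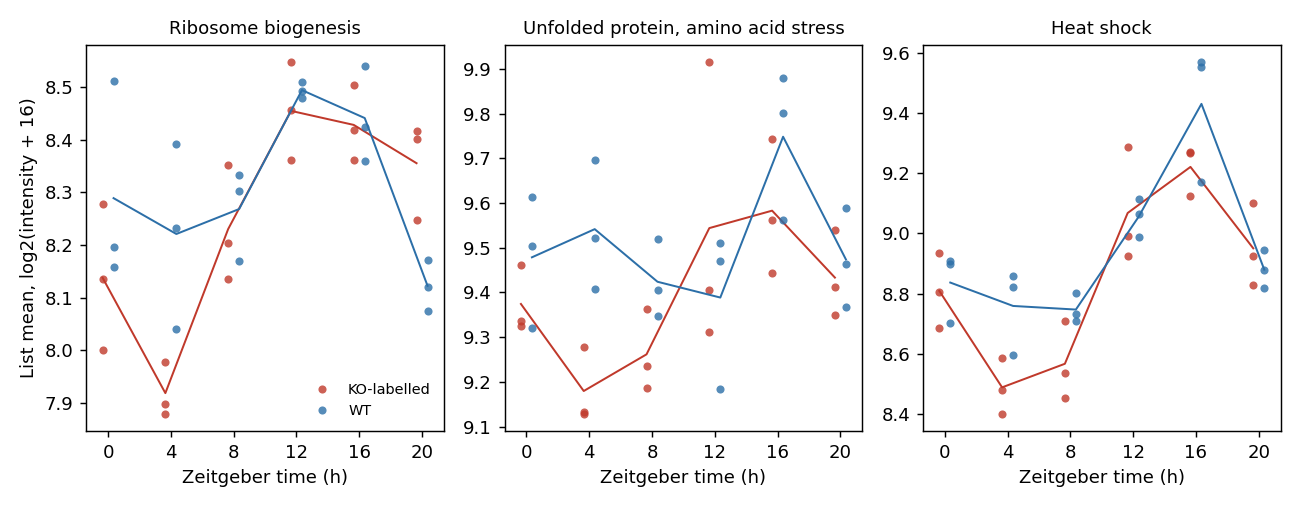
Mean log2(intensity + 16) over the members of 3 lists in each array of the cohort by zeitgeber time, KO-labelled in red and WT in blue, with lines through group means. At ZT4 the 3 KO-labelled arrays lie below the 3 WT arrays in all 3 lists, at 7.88 to 7.98 against 8.04 to 8.39 in ribosome biogenesis. In heat shock the groups nearly touch, at 8.40 to 8.59 against 8.60 to 8.86.

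Lipid synthesis genes were mixed. Of 17 genes of fatty acid synthesis, 11 had the lower mean and 0 passed limma's test (4 at an unadjusted p under 0.05). All KO-labelled arrays were below all WT arrays in 4, against 11.1% of all genes, and above in 1, against 7.00%. The 4 were Fasn, the fatty acid synthase, at 11.25, 11.12 and 11.03 in KO-labelled livers and 11.65, 11.57 and 11.46 in WT livers, the acetyl-CoA source Acly (-0.46), the elongase Elovl6 (-0.55) and the lipogenic regulator Thrsp (-0.86). The acetyl-CoA carboxylase Acaca (-0.10) and the desaturase Scd1 (0.02) overlapped. Of 19 genes of cholesterol synthesis and uptake, 18 had the lower mean, with a median of -0.32, but Insig1, the sterol sensor's anchor, was the 1 gene with separate groups, at 11.26, 11.39 and 10.99 against 11.54, 11.86 and 11.68. WT replicate 1 overlapped the KO-labelled arrays in the pathway, whose mean was 10.28, 10.34 and 9.99 in KO-labelled livers and 10.14, 10.71 and 10.62 in WT. At an unadjusted p under 0.05 there were 3 such genes, all lower, and 0 passed limma's test. The median of the list was -0.50 without WT replicate 1, -0.19 without KO replicate 3 or WT replicate 2, -0.21 without WT replicate 3, and -0.10 at the other times.

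Genes of fatty acid oxidation more often had the higher mean. Of 25 genes of fatty acid oxidation and PPARA targets, 19 had the higher mean (median 0.09) and 0 passed limma's test. Separate groups upward were seen in 2, against 7.00% of all genes. An unadjusted p under 0.05 was reached by 3, against 1634 of 13308 genes tested, so both counts were near those of all genes. The number with the higher mean was 20 after quantile normalization and 15 after centring of array medians, and all 25 were higher without KO replicate 1 (median 0.23). It was 15 without KO replicate 2 (median 0.06), 15 without KO replicate 3 (0.02), 22 without WT replicate 2 (0.16) and 16 without WT replicate 3 (0.07). Plin2, which coats lipid droplets, read 11.14, 11.08 and 11.41 in KO-labelled livers, against 10.87, 10.97 and 10.74 in WT livers. Ppara, the receptor that drives these genes, read 10.40, 10.72 and 10.63 against 9.36, 10.63 and 9.72 in WT, and WT replicate 2 overlapped. Cd36, the fatty acid transporter among 29 genes of lipid uptake and lipoproteins, read 8.90, 8.83 and 9.08 against 10.33, 9.98 and 10.75 in WT (-1.41 ± 0.40, adjusted p = 0.22), and it passed at the other times (-0.81 ± 0.18, adjusted p = 0.0072). Apoa4, an apolipoprotein, was above WT in all 3 arrays at 0.58 and also passed at the other times (0.56). Over all 29 genes of that list, 15 had the higher and 14 the lower mean.

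Glucose genes showed no common direction. Of 13 gluconeogenesis genes, 6 had the higher and 7 the lower mean, with 4 separate and lower, against 11.1% of all genes. Pck1, the gatekeeper enzyme of gluconeogenesis, read 11.65, 11.93 and 11.38 in KO-labelled livers, against 12.51, 12.09 and 12.36 in WT livers (-0.67 ± 0.17, adjusted p = 0.16), and Tat and Ppargc1a differed by -0.37 and -0.30. G6pc, the last step of glucose release, read 10.68, 11.64 and 11.62 against 12.15, 10.78 and 10.88 in WT, with overlap. Of 15 glycolysis genes, 6 had the higher and 9 the lower mean. Pklr, the liver pyruvate kinase, was above WT in all 3 arrays (0.60), and Pgk1 was below (-0.12). HIF1A and NF-kB targets had 7 higher and 10 lower means with a median of -0.14. Hif1a itself read 9.76, 9.68 and 9.73 against 9.97, 9.86 and 9.96 in WT, while a second probe set of it differed by 0.22, so its direction was not settled. None of these genes passed limma's test at ZT4, and 2, 2 and 1 of the 3 lists had an unadjusted p under 0.05.

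No circadian clock gene passed the test at ZT4. Of 22 measured genes of the core clock and its output factors, 0 passed limma's test at ZT4 and 2 had an unadjusted p under 0.05. Among the activators, Arntl, which encodes BMAL1, read 8.75, 8.06 and 8.63 in KO-labelled livers, against 8.91, 7.67 and 8.60 in WT livers (0.09 ± 0.30). Clock differed by 0.01 ± 0.15, Npas2 by 0.15 ± 0.28 and Rora by -0.08 ± 0.08. Among the repressors, Nr1d1 differed by 0.15 ± 0.45, Nr1d2 by 0.01 ± 0.29, Cry1 by -0.25 ± 0.20, Cry2 by 0.07 ± 0.18, Per1 by -0.42 ± 0.38 and Per3 by -0.67 ± 0.28, and Bhlhe40, Bhlhe41 and Ciart by 0.05, -0.06 and -0.55. WT replicate 2 was the array that stood off, with Arntl lowest and Per3 highest (8.10, against 6.46 and 7.23 in the other WT arrays). Of the output factors, Dbp (0.03), Tef (-0.18, with 0.20 at another probe set), Hlf (0.17), Nfil3 (0.16), Wee1 (-0.50), Cdkn1a (-0.80) and Usp2 (-0.68) overlapped. Cirbp, a cold-inducible RNA-binding protein, read 7.62, 7.59 and 7.72 against 7.18, 7.48 and 7.45 in WT, and Noct, a deadenylase-like protein with a daily rhythm, 5.60, 5.24 and 5.10 against 7.49, 5.73 and 6.14. These 2 had separate groups, with adjusted p of 0.74 and 0.78. The standard errors allow sizeable differences in the rhythmic genes, so these values do not show that the clock was equal. Averaged over the other 5 times, Nr1d1 did pass (-0.73 ± 0.20, limma adjusted p = 0.036), while Nr1d2 did not (-0.24 ± 0.13). At ZT 0 alone the differences were -2.72 for Nr1d1 and -1.26 for Nr1d2.

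No sirtuin or NAD gene passed the test. Of 7 sirtuins, 5 had the higher mean, and Sirt7 was below WT in all 3 arrays, at 7.90, 8.12 and 8.11 against 8.19, 8.37 and 8.21, with -0.21 at ZT4 and -0.20 at the other times (adjusted p = 0.66 and 0.012). Sirt3 and Sirt4 overlapped. Of 16 genes of NAD synthesis and use, 11 had the lower mean, with Nampt, the gatekeeper of NAD salvage, separate at 9.07, 8.99 and 9.03 against 9.44, 9.20 and 9.60 (-0.38 ± 0.21, adjusted p = 0.71). The widest difference of that list was in Acmsd, which diverts tryptophan breakdown from NAD synthesis, at 9.43, 9.20 and 9.48 against 10.82, 9.27 and 10.09 in WT (-0.69 ± 0.39, adjusted p = 0.73), with overlap. In the bile acid list, Baat, which conjugates bile acids to taurine, read 8.23, 9.54 and 9.65 against 10.12, 10.25 and 10.36 in WT (-1.10 ± 0.25, adjusted p = 0.083), and it passed at the other times (-0.70 ± 0.11). Abcc2, the canalicular exporter, was separate at -0.20. Drug metabolism genes had 11 higher and 19 lower means, and amino acid breakdown and urea cycle genes 7 and 20. Of the latter 27, 5 were separate and lower, against 11.1% of all genes, Cth (-0.40) and Hgd (-0.26) among them. Iron and BMP signalling genes had 9 higher and 10 lower means. Beside Hamp2, the iron sensors' partner Hfe read 8.87, 8.63 and 8.59 against 9.12, 9.04 and 9.29 in WT (-0.45, adjusted p = 0.24). None of these lists held a gene past the limma test at ZT4, with 0 to 3 members of each at an unadjusted p under 0.05.

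Lists that follow cell makeup and inflammation varied with single arrays. All 18 cell cycle genes had the lower mean (median -0.44, -0.75 without WT replicate 2, -0.25 without WT replicate 3, and 0.16 at the other times), but 1 of them, Pcna, had separate groups, 0 passed limma's test and 0 reached an unadjusted p under 0.05. Their mean was 7.12, 6.58 and 6.56 in KO-labelled livers and 7.36, 6.60 and 7.61 in WT livers, so WT replicate 2 read like the KO-labelled arrays. Of 16 interferon genes, 12 had the lower mean (median -0.30), and without WT replicate 3 only 6 had it (median 0.12). With each of the other 5 arrays left out in turn, the median ran from -0.67 to -0.10. The 23 acute phase genes had 13 higher and 10 lower means, and none had separate groups. Macrophage markers had 7 higher and 8 lower means, lymphocyte markers 5 and 3, stellate cell markers 7 and 5, endothelial markers 4 and 8, bile duct markers 3 and 1, adipose markers 3 and 0, pancreas markers 1 and 1, and hepatocyte markers 4 and 5, while 1 neutrophil marker was higher and 1 erythroid marker lower. The macrophage mean was 9.50, 8.74 and 8.85 in KO-labelled livers and 9.33, 8.33 and 9.57 in WT livers, and its part in the differences above was not tested. None of the cell marker genes passed limma's test or reached an unadjusted p under 0.05.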

How the data were processed

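Livers were profiled on Affymetrix arrays with 1 biotin-labelled RNA each. Deposited values are linear intensity per probe set, and the submitters' processing notes name Affymetrix Expression Console 1.1.1 and PLIER 2.0 as the authors' tools, without settings or a genome build. Groups came from sample titles. Of 41345 probe sets, 23521 had 1 gene symbol, 1814 several and 16010 none. The probe set with the highest mean stood for each of 22180 genes (1082 had several).

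Values were taken as log2(intensity + 16), and the lowest 40% of genes by mean were left out. The cohort's 36 arrays were fitted as 12 group means with limma 3.58.1 in R 4.3.3, with empirical Bayes moderation and a trend. KO minus WT at ZT4 was corrected (Benjamini-Hochberg) over genes and 6 times together; the mean of the other 5 times, and ZT4 minus that mean, over genes. The threshold was 0.05. The fit was checked on simulated arrays. The members and the 34 gene lists were chosen with earlier results of these data known. Named were Sirt6, all known genes past the threshold, the 5 highest and 5 lowest changes with separate groups, genes past the difference test, clock genes, and the 4 smallest p of each other list; further list members, Xist and Kdm5d were chosen after their values were seen. Alternatives covered scaling, pseudocount, filter, block, array weights, trend, probe sets, joint fit, threshold, correction and single arrays left out. Promoters came from RefSeq (GRCm38.p6).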

Additional observations from a re-analysis of the deposited data

Results flagged for a closer look

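Of all genes tested, 2 differed between ZT4 and the mean of the other 5 times by a test of the difference itself. For Fam169b, KO minus WT at ZT4 minus the mean of the other times was -0.66 on the log2 scale (limma adjusted p = 0.017), with the 3 KO-labelled arrays at 7.40, 7.48 and 7.38 and the 3 WT arrays at 8.06, 8.05 and 8.07. With all arrays and a threshold of 0.05 it missed only after quantile normalization (adjusted p = 0.071), and it passed in 0 of the 6 fits that left out 1 array. For Fendrr the difference was -0.67 (adjusted p = 0.048), with 6.54, 6.49 and 6.43 in KO-labelled and 6.88, 7.31 and 7.09 in WT livers. It missed the threshold after quantile normalization (0.18), centring of array medians (0.088) and with the replicate block (0.092), among others. Groups of 3 arrays are too small for a test of single outlying arrays.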

How the results depend on the processing

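The number of genes past the threshold at ZT4 was 24, and it stayed within 1.5 times of that under both scalings, both pseudocounts, no filter, no trend, all probe sets, a correction over ZT4 alone (36) and the replicate block (27). The genes were not all the same: 17 of the 24 remained after quantile normalization, 20 after centring of array medians, 17 with no filter and 22 with the block, which ended the calls of Grm2 and Ttc39b. The replicate numbers do not pair the arrays (correlations of same-numbered deviations 0.11, 0.41 and -0.36, and 1 of 3 KO arrays closest to its own number). It was 14 with the lowest 60% left out, where 10 of the 24 were not tested, 63 in 1 fit of 72 arrays, 73 with the acute phase mean as a covariate (chosen after seeing the data), 7 at a threshold of 0.01, and 7 in a fit of the 6 arrays alone, which held 0 of the 24. Array weights gave 709, with an estimation that did not converge; the cause of these shifts was not tested. With 1 array left out it ran from 11 (without KO replicate 2 or KO replicate 3) to 23, at 13 without WT replicate 1. After centring of array medians 7 were higher and 22 lower, against 11 and 13. All of the 24 that were tested kept their direction in each alternative. At the other 5 times the 558 became 1943 with array weights and 260 at 0.01. The 332 higher and 315 lower there after quantile normalization compare with 365 and 193. The difference test's 2 genes became 10 with array weights, 1 after centring of medians, with pseudocount 1, no filter, the lowest 60% left out, the replicate block, all probe sets or 1 fit of 72 arrays, 0 after quantile normalization or at 0.01, and 0 to 1 with 1 array left out. Sirt6 passed after quantile normalization (0.58), with array weights (0.50), in 1 fit of 72 arrays (0.56), with the acute phase covariate (0.53) and with the correction over ZT4 alone (0.56); it was 0.50 to 0.61 with 1 array left out. Over 3368 values of single genes 0 turned over past the threshold, and 63 changed sign among genes that passed in neither setting.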
